A study of Zea mays with 12 samples.

Results

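The protein phosphatase 2C (PP2C) genes of maize were followed in imbibed and dry seeds. A gene was taken as a member if its deposited name or description holds "protein phosphatase 2C" or "PP2C" and it had 10 or more counts in total over the 12 libraries. The words matched 152 of the 55529 genes in the table, and 92 of these were members. The other 60 had fewer than 10 counts, and 45 of them had no count in any library.

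RNA-seq was performed on seeds of the maize line KN5585 and of a ZmEREB92 mutant made by CRISPR/Cas9 in the KN5585 background, at 0 and 6 hours after imbibition (HAI). The 4 groups were ereb92_6h (mutant, 6 HAI), ereb92_0h (mutant, 0 HAI), KN5585_6h (wild type, 6 HAI) and KN5585_0h (wild type, 0 HAI), with 3 libraries each. The mutant was a single edited line, ereb92-6, so that the mutation and other differences of that line cannot be told apart. The study calls the libraries biological replicates. The names used below stand for the libraries labelled so.

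PP2C enzymes are metal-dependent serine/threonine phosphatases that work as single subunits, unlike the PP1 and PP2A types. In Arabidopsis, the clade that holds ABI1, ABI2, HAB1 and PP2CA binds the PYR/PYL receptors of abscisic acid (ABA). Without ABA these phosphatases keep SnRK2 kinases inactive, and ABA-bound receptors block them, so they act as brakes on ABA signaling, the pathway that holds seeds dormant. Other clades of the family act on light harvesting complexes, meristem signaling, growth control and stress kinases.

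Between 12771663 and 15383586 counts were assigned to genes per library, and counts per 1000000 after TMM scaling (CPM) were used to compare libraries. Genes with at least 1 count numbered 23104 in KN5585_6h replicate 1 and 27689 to 32080 in the other libraries, so this library stands apart. Members with at least 1 count numbered 89 to 90 in ereb92_6h, 86 to 89 in ereb92_0h, 84 to 88 in KN5585_6h and 88 to 91 in KN5585_0h. ZmEREB92 (Zm00001d000339), the targeted gene, had 289, 195 and 62.4 CPM in ereb92_6h, 7.66, 1.30 and 5.32 CPM in ereb92_0h, 13.3, 4.59 and 33.0 CPM in KN5585_6h and 9.12, 1.65 and 2.12 CPM in KN5585_0h. The files place this identifier on an unplaced contig (B73V4_ctg23) of B73 RefGen_v4. The study's text describes the gene as missing from that assembly. Whether the edit lowers the transcript is not given in the sources used here. The transcript was most abundant in the libraries labelled as mutant at 6 HAI, and every direction below follows the labels. Genes of the embryo list (oleosins, globulins and embryo specific proteins, 11 genes) took 3.77% to 8.44% of counts in ereb92_6h, 5.57% to 12.4% in ereb92_0h, 7.19% to 9.12% in KN5585_6h and 7.14% to 7.76% in KN5585_0h. The 21 zein genes, which mark endosperm, took at most 0.0608% of counts in any library, and the 15 chlorophyll a-b binding protein genes of green tissue at most 0.00431%. In such whole-tissue libraries, fewer cells of a type and less RNA per cell cannot be told apart.

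The genes matched by the words were uneven in size and use. Members had a median length in the table of 2193 bases (204 to 6662), against 442.5 bases for the 60 genes below 10 counts. "Probable protein phosphatase 2C 33" was the commonest description, with 32 genes, but 26 of them had no count and only Zm00001d019919, with 18 counts over all libraries, was a member. By contrast, all 9 genes described as PP2C 48 and all 5 described as PP2C 9 or as PP2C 76 were members. The family column of the table names PP2C for 84 members, SpoIIE for 4, Pkinase for 2 and nothing for 2. "Probable" PP2C numbers are used for unlike proteins in Arabidopsis and rice, so no role was read from such a number alone.

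Transcript levels of the members spanned from 0.0493 to 89.1 FPKM (fragments scaled to gene length and library size, mean over 12 libraries), with a median of 6.79 FPKM. The most abundant was Zm00001d044525, described as PP2C 57, the name of the Arabidopsis thylakoid phosphatase TAP38/PPH1 that acts on light harvesting complexes. Its FPKM averaged 59.7 ± 15.7 in ereb92_6h, 109 ± 17.5 in ereb92_0h, 95.1 ± 38.6 in KN5585_6h and 92.3 ± 41.7 in KN5585_0h (SD, n = 3 each). The next were Zm00001d008171 (PP2C 49, 74.4 FPKM), Zm00001d015279 (PP2C 59, 63.6 FPKM), Zm00001d006486 (PP2C 9, 53.4 FPKM) and Zm00001d044301 (ABI2, 51.5 FPKM). Zm00001d028752 (PP2C 30) ranked sixth over all libraries, with 174 ± 46.1 in ereb92_6h, 9.39 ± 1.29 in ereb92_0h, 17.2 ± 16.4 in KN5585_6h and 5.19 ± 3.06 in KN5585_0h (SD, n = 3 each). It was thus the most abundant member in ereb92_6h and ranked 34 in ereb92_0h, 21 in KN5585_6h and 47 in KN5585_0h. Zm00001d013220 (PP2C 48, 46.9 FPKM) and Zm00001d000302 (PP2C 59, 46.3 FPKM) followed.

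**Figure D1:**
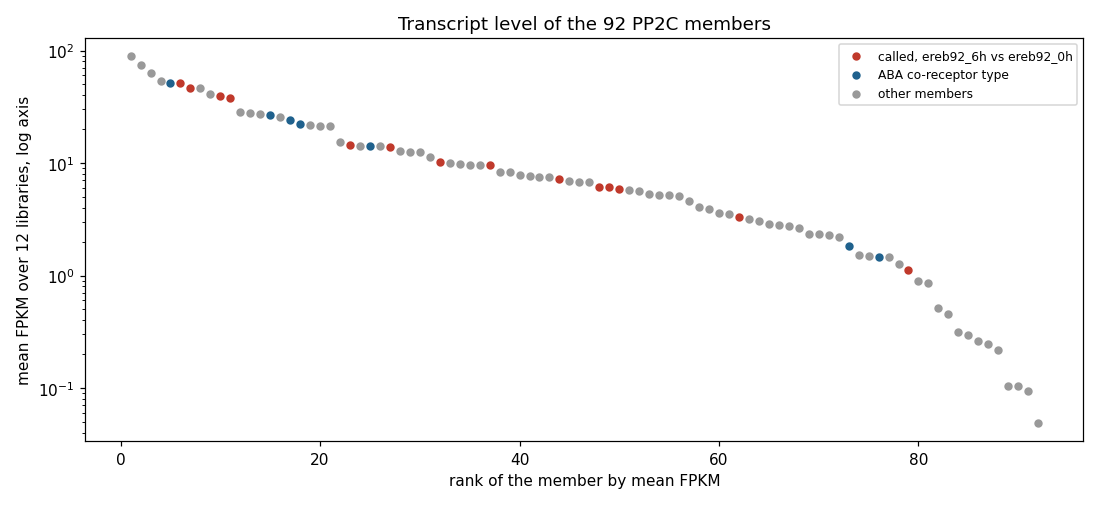
Mean FPKM over the 12 libraries (log axis) of the 92 PP2C members against their rank. Members called in ereb92_6h vs ereb92_0h are red and those of the ABA co-receptor type blue; levels span from 0.0493 to 89.1 FPKM, and both kinds are spread over the ranks.

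Summed over the 92 members, the level was 2957 to 3260 CPM in ereb92_6h, 2157 to 2297 CPM in ereb92_0h, 2065 to 2645 CPM in KN5585_6h and 2021 to 2598 CPM in KN5585_0h. The ereb92_6h libraries lay above all 9 others. The next highest library was KN5585_6h replicate 3.

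To ask how members responded to imbibition in the mutant, ereb92_6h was compared with ereb92_0h. All members that were called rose. Of the 85 tested, 14 (16.5%) were called higher, by an adjusted p under 0.05 in edgeR's quasi-likelihood test and a fold change of at least 2, and 0 lower. Of all 23575 genes tested, 5.87% were called higher and 0.106% lower. Without adjustment of p, 19 members passed the same limits upward and 0 downward, against 11% and 0.878% of all genes. DESeq2 called 16 members higher and 0 lower, against 8.44% and 0.399% of all genes, and the fit with the replicate block called 16, against 6.46%. The median log2 fold change of members was 0.09, against -0.02 for all genes. In the same comparison 9 of 9 zein genes tested and 11 of 11 genes of the embryo list had lower values, with median log2 fold changes of -0.79 and -0.55 and 0 called. Mitochondrial and plastid genes took 0.119% to 0.619% of counts in ereb92_6h and 0.0481% to 0.0689% in ereb92_0h, without overlap, against 0.112% to 1.67% in KN5585_6h and 0.0325% to 0.342% in KN5585_0h. The part of these differences in the rise of members was not tested. Groups did not overlap for 29 members that were higher and 7 that were lower, against 14.9% and 9.62% of all genes tested. The called members made up 33.4% to 46.0% of the summed FPKM of the family in ereb92_6h, 9.10% to 11.3% in ereb92_0h, 8.41% to 17.9% in KN5585_6h and 9.90% to 10.4% in KN5585_0h, a share that follows in part from how they were called.

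**Figure D2:**
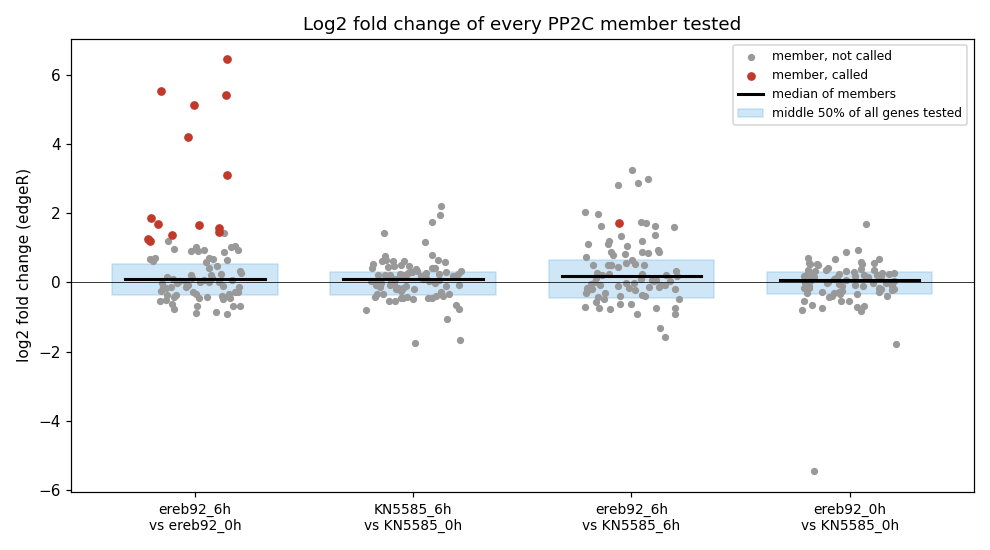
Log2 fold change (edgeR) of each PP2C member tested in the 4 comparisons, with called members in red, the median of members as a black line and the middle 50% of all genes tested as a blue band. In ereb92_6h vs ereb92_0h, 14 members were called, all above 0, while the median stayed at 0.09.

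Both members described as PP2C 30 rose (coordinates are in B73 RefGen_v4). Zm00001d028752 (chromosome 1, 45537884 to 45539961) had 405, 303 and 244 CPM in ereb92_6h, 17.9, 19.6 and 14.8 CPM in ereb92_0h, 10.2, 18.3 and 65.6 CPM in KN5585_6h and 15.8, 5.0 and 7.78 CPM in KN5585_0h. Its ereb92_6h libraries exceeded every other library, and it rose with a log2 fold change of 4.20 ± 0.28 (SE, edgeR adjusted p = 0.000383). Zm00001d047732 (chromosome 9, 140181927 to 140183785) had 22.3, 22 and 14.4 CPM in ereb92_6h, 10.0, 5.58 and 5.84 CPM in ereb92_0h, 5.85, 3.81 and 8.2 CPM in KN5585_6h and 2.47, 7.84 and 8.48 CPM in KN5585_0h. It rose less, with a log2 fold change of 1.46 ± 0.34 (SE, edgeR adjusted p = 0.0408).

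Of the 9 members described as PP2C 48, 3 rose. Zm00001d034109 (chromosome 1, 284176337 to 284179392) had 87.2, 82 and 57.5 CPM in ereb92_6h, 1.95, 3.36 and 1.23 CPM in ereb92_0h, 4.22, 3.81 and 22.7 CPM in KN5585_6h and 7.03, 2.77 and 1.81 CPM in KN5585_0h. No ereb92_6h library overlapped any other library, and the gene rose with a log2 fold change of 5.13 ± 0.40 (SE, edgeR adjusted p = 0.000603). Zm00001d013220 (chromosome 5, 6711124 to 6713605) had 196, 159 and 208 CPM in ereb92_6h, 17, 22.1 and 27 CPM in ereb92_0h, 10.5, 39.1 and 81.7 CPM in KN5585_6h and 32, 29.4 and 25.1 CPM in KN5585_0h. Its log2 fold change was 3.10 ± 0.25 (SE, edgeR adjusted p = 0.000646). In KN5585_6h the 3 libraries of this gene were far apart, with replicate 3 the highest. Zm00001d048359 (chromosome 9, 154975226 to 154979466) had 45.4, 45.9 and 29.1 CPM in ereb92_6h, 12.8, 16.3 and 18.2 CPM in ereb92_0h, 18.4, 18.5 and 22.4 CPM in KN5585_6h and 12.1, 13.6 and 13.7 CPM in KN5585_0h, and its log2 fold change was 1.35 ± 0.26 (SE, edgeR adjusted p = 0.0194). The genes Zm00001d027570, Zm00001d027571 and Zm00001d027572 of this description are neighbours on chromosome 1, with 1592 and 11114 bases between them. Whether reads are shared between them is not known, since their sequences were not compared. None of the 3 was called, and all had higher values in every ereb92_6h library than in any ereb92_0h library. Zm00001d014797, also of this description, had the opposite order.

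Among genes described as PP2C 4, 2 of 4 members had enough counts to be tested, and both rose in the mutant. Zm00001d034655, named umc86a (chromosome 1, 298994999 to 298998450), had 58.9, 65.2 and 24.5 CPM in ereb92_6h, 0.547, 0.993 and 1.69 CPM in ereb92_0h, 2.47, 3.36 and 12.1 CPM in KN5585_6h and 0.57, 1.84 and 2.2 CPM in KN5585_0h. Its log2 fold change was 5.53 ± 0.54 (SE, edgeR adjusted p = 0.0011). Zm00001d012962 (chromosome 5, 2395497 to 2399273) had 78.3, 34.5 and 35.4 CPM in ereb92_6h, 1.7, 1.15 and 0.584 CPM in ereb92_0h, 0, 1.87 and 17.1 CPM in KN5585_6h and 0.095, 1.51 and 2.43 CPM in KN5585_0h. Its log2 fold change was 5.43 ± 0.52 (SE, edgeR adjusted p = 0.00102). For both, KN5585_6h replicate 3 was the highest wild type library.

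Of the 5 members described as PP2C 9, 3 rose. Zm00001d002369 (chromosome 2, 11162219 to 11166257) had 63.1, 50.1 and 40.1 CPM in ereb92_6h, 17.6, 14.9 and 16.2 CPM in ereb92_0h, 15.9, 11.6 and 16.3 CPM in KN5585_6h and 15, 8.82 and 9.58 CPM in KN5585_0h, and its log2 fold change was 1.66 ± 0.23 (SE, edgeR adjusted p = 0.0047). Zm00001d026363 (chromosome 10, 144369745 to 144382245) had 45.2, 26.3 and 19.7 CPM in ereb92_6h, 9.67, 8.86 and 6.68 CPM in ereb92_0h, 8.38, 8.72 and 8.72 CPM in KN5585_6h and 10.8, 8.03 and 9.27 CPM in KN5585_0h, and its log2 fold change was 1.87 ± 0.35 (SE, edgeR adjusted p = 0.0174). It shares 1674 bases with a gene on the other strand that had 2 counts in all. Zm00001d026269 (chromosome 10, 142406258 to 142407949) had 123, 84 and 52.9 CPM in ereb92_6h, 31.8, 30.9 and 25.3 CPM in ereb92_0h, 19.8, 29.8 and 46 CPM in KN5585_6h and 31.6, 23.4 and 28.9 CPM in KN5585_0h, and its log2 fold change was 1.57 ± 0.31 (SE, edgeR adjusted p = 0.0219). The most abundant gene of this description, Zm00001d006486, was not called.

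The remaining called members each stood alone. Zm00001d048131 (PP2C 63, chromosome 9, 150564485 to 150566603) had 45.4, 50.2 and 35.1 CPM in ereb92_6h, 17.5, 13.4 and 9.99 CPM in ereb92_0h, 7.99, 23.6 and 17.2 CPM in KN5585_6h and 11.5, 11.9 and 11.5 CPM in KN5585_0h, with a log2 fold change of 1.68 ± 0.27 (SE, edgeR adjusted p = 0.00886). Zm00001d024732 (PP2C 49, chromosome 10, 85589259 to 85592180) had 146, 118 and 125 CPM in ereb92_6h, 58.6, 66.9 and 45.8 CPM in ereb92_0h, 32.3, 70.9 and 97 CPM in KN5585_6h and 76, 57 and 60.6 CPM in KN5585_0h, with a log2 fold change of 1.19 ± 0.22 (SE, edgeR adjusted p = 0.0154). Zm00001d000124 (PP2C 40, contig B73V4_ctg56, 125718 to 130113) had 21.4, 23 and 15.9 CPM in ereb92_6h, 7.42, 9.01 and 9.14 CPM in ereb92_0h, 19.6, 9.75 and 10.0 CPM in KN5585_6h and 15.8, 11.5 and 14.1 CPM in KN5585_0h, with a log2 fold change of 1.24 ± 0.26 (SE, edgeR adjusted p = 0.0276). The ereb92_0h libraries of the last gene were also below every KN5585_0h library. A gene without a maize gene identifier that is described by its PP2C domain (chromosome 3, 213660369 to 213661338) had 23, 73 and 25 counts in ereb92_6h, against 0, 0 and 1 in ereb92_0h. The ratio of its summed rates was 122 (95% exact counting interval 21.5 to 4850, counting error only). It was called, with edgeR adjusted p = 0.011, and its fitted fold change depends on the prior count. Over all 12 libraries this gene had 173 counts, so the KN5585 libraries held counts as well. In ereb92_6h vs KN5585_6h it was not called, and its fitted difference was smaller, though the groups did not overlap.

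**Figure D3:**
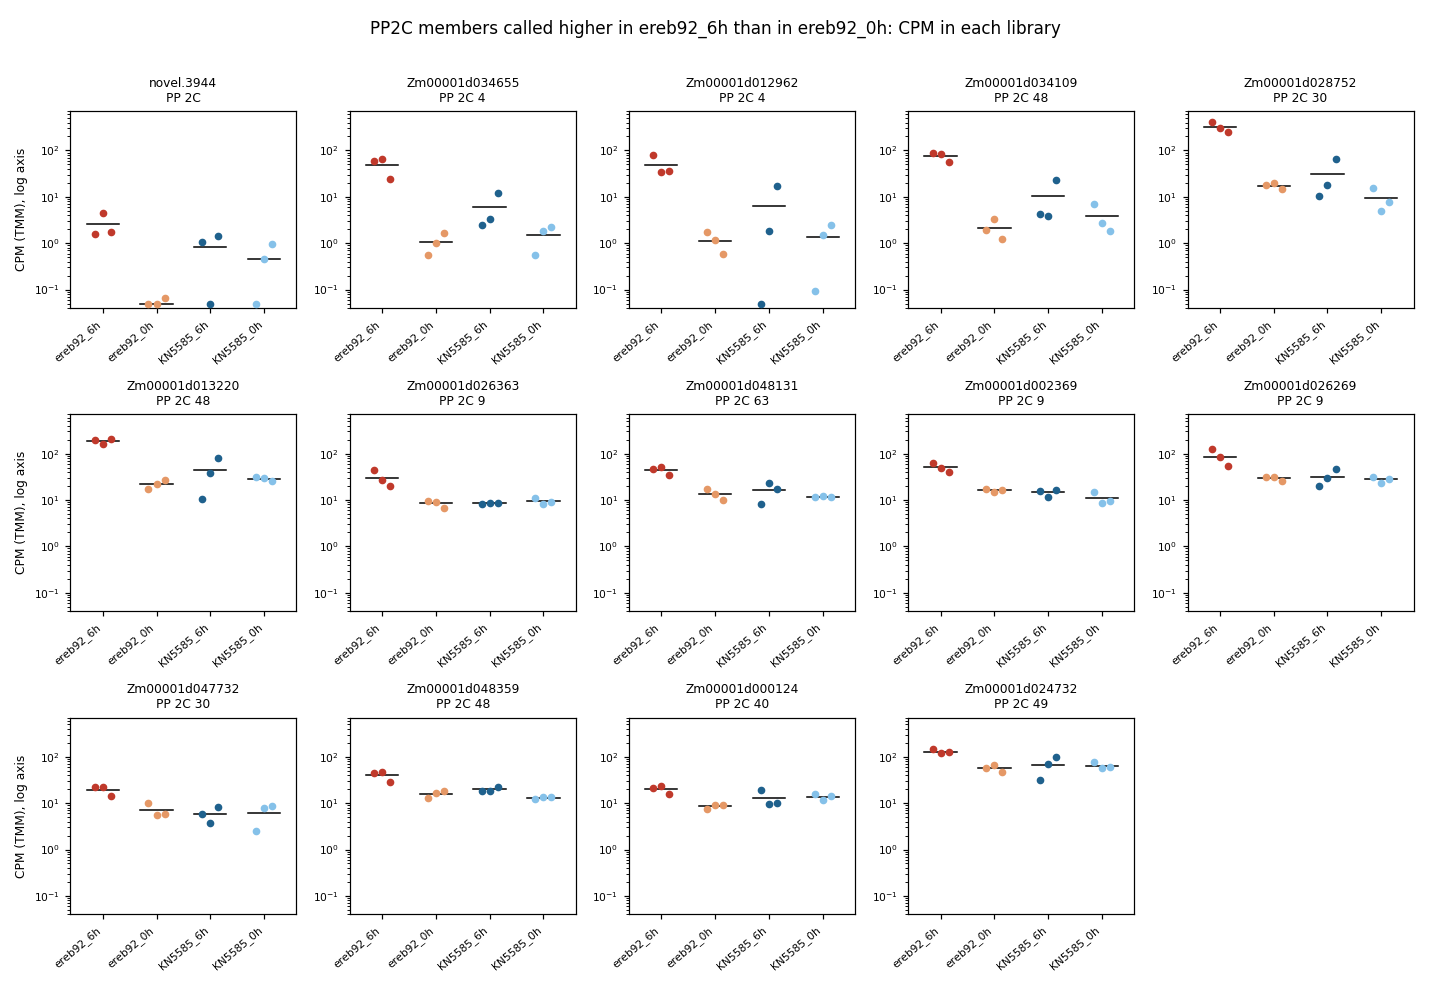
CPM (TMM, log axis) of the 14 called members in each library, ordered by fold change, with points for the 3 libraries of a group and a line at their mean; values under 0.05 CPM are drawn at 0.05. In all panels the 3 ereb92_6h points lie above the 3 ereb92_0h points, and KN5585_6h replicate 3 (rightmost) is the highest of its group in 12 of 14.

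Several larger descriptions held no call by edgeR's test. Of the 6 tested members described as PP2C 12, the 4 described as PP2C 22 and the 5 described as PP2C 76, 0 were called, with median log2 fold changes of 0.57, 0.69 and -0.40. Zm00001d025548 (PP2C 12), with edgeR adjusted p = 0.0989, was called by DESeq2 (adjusted p = 0.0284) and with the replicate block (edgeR adjusted p = 0.0456). The 4 members described as PP2C 21 and the 3 described as PP2C 59 had no call either.

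Which libraries a call rests on differed between members. Leaving out each of the 6 libraries in turn left 8 to 16 members called. The lowest count came without ereb92_0h replicate 3, while 9 were called without ereb92_0h replicate 1, ereb92_0h replicate 2 or ereb92_6h replicate 2. Zm00001d028752, Zm00001d013220, Zm00001d034109, Zm00001d002369 and Zm00001d048131 were called in every alternative run. In contrast, Zm00001d000124, Zm00001d026269 and Zm00001d048359 were called in 1 of the 6 fits that leave out a library, while their log2 fold changes stayed between 1.10 and 1.38, 1.23 and 1.82, and 1.17 and 1.53 in these fits. The call of Zm00001d047732 was lost without ereb92_0h replicate 2 or 3 or ereb92_6h replicate 1 or 2. That of Zm00001d026363 was lost without any 1 of the ereb92_0h replicates, and that of Zm00001d024732 without ereb92_0h replicate 1 or 3. With all 12 libraries in 1 fit, 9 of the 14 were called, and Zm00001d047732 and Zm00001d024732 were among those not called. Shares of all genes called in these fits are not given, so the counts do not set members apart from all genes.

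At any fold, 17 members were higher and 0 lower with an adjusted p under 0.05, against 5.96% and 0.14% of all genes. The 3 below the fold limit are given here, and they were picked out after their values were seen. Zm00001d008171 (PP2C 49) had 216, 198 and 181 CPM in ereb92_6h, 102, 123 and 91.4 CPM in ereb92_0h, 122, 103 and 192 CPM in KN5585_6h and 129, 65.1 and 84.7 CPM in KN5585_0h, with a log2 fold change of 0.92 ± 0.21 (SE, edgeR adjusted p = 0.036). Zm00001d052018 (PP2C 22, named DBP-transcription factor 1 after the DNA-binding phosphatases of tobacco) had a log2 fold change of 0.97 ± 0.24 (SE, edgeR adjusted p = 0.0489). Zm00001d003509 (PP2C 12) had a log2 fold change of 0.92 ± 0.20 (SE, edgeR adjusted p = 0.0353).

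No member was called lower. Among those with lower values in every ereb92_6h library than in any ereb92_0h library, the largest differences were in 5 genes. The most abundant member, Zm00001d044525 (PP2C 57), had 59.2, 104 and 86.5 CPM in ereb92_6h, 126, 168 and 169 CPM in ereb92_0h, 124, 81.6 and 188 CPM in KN5585_6h and 192, 77.1 and 118 CPM in KN5585_0h, with a log2 fold change of -0.89 ± 0.25 (SE, edgeR adjusted p = 0.0943). With replicate numbers as a block its edgeR adjusted p was 0.0277, with a change still smaller than the fold limit. In DESeq2 its adjusted p was 0.023, and DESeq2 called 0 members lower. The others were Zm00001d046831 (PP2C 21, -0.84), Zm00001d053313 (a PP2C with a cyclic nucleotide-binding and kinase domain, -0.77), Zm00001d001988 (PP2C 59, -0.70) and Zm00001d014797 (PP2C 48, -0.68), as log2 fold changes with edgeR adjusted p between 0.0942 and 0.288.

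The same question in the wild type was addressed by KN5585_6h vs KN5585_0h. Of 85 members tested, 0 were called in either direction, against 0.00449% of 22282 genes higher and 0% lower. At an unadjusted p under 0.05 with a 2-fold change, 3 members were higher and 0 lower, against 1.03% and 1.23% of all genes. DESeq2 called 0 members, against 0.206% higher and 0.144% lower. The median log2 fold change of members was 0.09, against -0.02 for all genes. Groups did not overlap for 9 members that were higher and 3 that were lower, against 4.53% and 5.85% of all genes. The spread was wide here: Zm00001d028752 had a log2 fold change of 1.73 ± 0.72 (SE, edgeR adjusted p = 0.999), Zm00001d034109 a log2 fold change of 1.42 ± 0.83 (SE, edgeR adjusted p = 0.999), and Zm00001d012962 a log2 fold change of 2.21 ± 1.66 (SE, edgeR adjusted p = 0.999). The value of Zm00001d012962 turned to -0.52 without KN5585_6h replicate 3. Without KN5585_6h replicate 1, the library with the fewest genes, 0 members were called as well.

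Members without overlap between KN5585_6h and KN5585_0h included 5 with the largest differences upward. Zm00001d034655 (PP2C 4) had a log2 fold change of 1.95 ± 0.81 (SE, edgeR adjusted p = 0.999). Zm00001d047412, described as PP2C 32, the name of the Arabidopsis meristem regulator POLTERGEIST, had 12, 8.4 and 5.92 CPM in ereb92_6h, 2.49, 4.81 and 5.38 CPM in ereb92_0h, 7.86, 4.07 and 5.55 CPM in KN5585_6h and 2.95, 2.04 and 2.91 CPM in KN5585_0h, with a log2 fold change of 1.16 ± 0.50 (SE, edgeR adjusted p = 0.999). The log2 fold changes of Zm00001d000098 (PP2C 12), Zm00001d025548 (PP2C 12) and Zm00001d048359 (PP2C 48) were 0.63, 0.62 and 0.60. Downward, Zm00001d021817 (PP2C 1), Zm00001d052852 (PP2C 6) and Zm00001d022565 (PP2C 5) had log2 fold changes of -1.07, -1.74 and -1.66. The edgeR adjusted p was 0.999 for each of these 8 genes.

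Imbibed seeds of the 2 genotypes were compared as ereb92_6h vs KN5585_6h. Of 85 members tested, 1 was called higher (1.18%) and 0 lower, against 0.815% and 0.143% of 23066 genes. The called member was Zm00001d002369 (PP2C 9), with a log2 fold change of 1.73 ± 0.28 (SE, edgeR adjusted p = 0.0413), the values of which are given above. It was lost without any 1 of KN5585_6h replicates 1 and 2 or ereb92_6h replicates 1, 2 and 3, when 0 members were called. At an unadjusted p under 0.05 and 2-fold, 11 members were higher and 1 lower, against 8.32% and 2.99% of all genes. Without KN5585_6h replicate 1, 0.583% of all genes were called higher and 0.121% lower. DESeq2 called 10 members higher and 0 lower, against 5.48% and 1.15% of all genes. Of the 10, 9 were among the 14 that rose in ereb92_6h vs ereb92_0h, a comparison that shares the ereb92_6h libraries. Groups did not overlap for 22 members that were higher and 5 that were lower, against 15.7% and 8.75% of all genes.

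The largest differences without overlap were in members that also rose in ereb92_6h vs ereb92_0h, with which the ereb92_6h libraries are shared. Zm00001d028752 had a log2 fold change of 3.25 ± 0.68 (SE, edgeR adjusted p = 0.0798), Zm00001d034655 a log2 fold change of 2.97 ± 0.67 (SE, edgeR adjusted p = 0.0918), Zm00001d012962 a log2 fold change of 2.88 ± 1.32 (SE, edgeR adjusted p = 0.353), Zm00001d034109 a log2 fold change of 2.80 ± 0.70 (SE, edgeR adjusted p = 0.115) and Zm00001d013220 a log2 fold change of 2.02 ± 0.64 (SE, edgeR adjusted p = 0.195). Without KN5585_6h replicate 3, in which these genes were highest among the wild type libraries, 4 members were called higher, Zm00001d028752, Zm00001d002369, Zm00001d034109 and Zm00001d034655, and 0 lower, against 2.04% and 0.253% of all genes. The summed CPM of the 14 members was 157, 243 and 426 in KN5585_6h replicates 1, 2 and 3, against 183 to 231 in KN5585_0h. What sets that library apart was not tested. Lower values without overlap were led by Zm00001d007530 (-1.58), Zm00001d053313 (-1.32), Zm00001d014797 (-0.92), Zm00001d000098 (-0.56) and Zm00001d001988 (-0.31), as log2 fold changes, none called.

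Dry seeds were compared as ereb92_0h vs KN5585_0h. Of 84 members tested, 0 were called, against 0.168% higher and 0.0973% lower of 22610 genes. At an unadjusted p under 0.05 with a 2-fold change, 1 member was higher and 2 were lower, against 2.68% and 3.26% of all genes. DESeq2 called 1 member higher and 1 lower, against 1.19% and 1.22%. With the replicate block 0 members were called, against 0.00442% of all genes higher. Groups did not overlap for 7 members that were higher and 7 that were lower, against 8.69% and 7.95% of all genes. Zm00001d014291 (PP2C 71) had 49.6, 8.09 and 33.6 CPM in ereb92_6h, 60.8, 18.7 and 40.7 CPM in ereb92_0h, 15.9, 11.8 and 10.3 CPM in KN5585_6h and 12.4, 14.3 and 10.7 CPM in KN5585_0h, with a log2 fold change of 1.68 ± 0.40 (SE, edgeR adjusted p = 0.188). Its mutant libraries were spread at both times, and 1 ereb92_6h library lay below every KN5585 library. Zm00001d027570 (PP2C 48), Zm00001d029297 (PP2C 32), Zm00001d039192 (PP2C 76) and Zm00001d046450 (PP2C 22) had log2 fold changes of 0.93, 0.70, 0.67 and 0.51. Zm00001d005071 (PP2C 65) had 1 count over the ereb92_0h libraries against 52 over the KN5585_0h libraries, a ratio of 0.0164 (95% exact counting interval 0.000409 to 0.0957, which covers counting error only), with edgeR adjusted p = 0.133. Zm00001d007530, Zm00001d006486, Zm00001d018394 and Zm00001d000124 had log2 fold changes of -1.80, -0.75, -0.70 and -0.70.

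Whether imbibition changed members differently in the mutant and the wild type was tested as an interaction over all 12 libraries. Of 86 members tested, 0 were called, against 0.0313% of 25567 genes higher and 0% lower. At an unadjusted p under 0.05 with a 2-fold difference, 14 members were higher in the mutant and 1 lower, against 5.86% and 0.86% of all genes. The smallest adjusted p was that of Zm00001d026363 (PP2C 9), at 0.165 for a difference of 1.98 on the log2 scale. DESeq2 called 4 members higher in the mutant and 0 lower, against 1.38% and 0.0587% of all genes. Without KN5585_6h replicate 3 edgeR called 4 higher and 0 lower, against 1.03% and 0.011%. So a rise passed the test in the mutant and not in the wild type, but the difference between the genotypes did not pass it.

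The 7 members of the ABA co-receptor type were set apart by descriptions that name an Arabidopsis co-receptor. They are ABI2, 4 genes described as PP2C 16 (HAB1 in Arabidopsis) and 2 described as PP2C 37 (PP2CA or AHG3 in Arabidopsis). Members under "Probable" numbers, called ones such as PP2C 30 and PP2C 9 included, were not placed in a clade. The set may therefore lack co-receptors, and what follows holds for these 7 genes only. None of the 7 was called in any comparison and none had an unadjusted p under 0.05 with a 2-fold change. Of all genes tested, 5.87% were called higher in ereb92_6h vs ereb92_0h, and 11% were higher at those unadjusted limits. The share called higher was 0.815% in ereb92_6h vs KN5585_6h, 0.00449% in KN5585_6h vs KN5585_0h and 0.168% in ereb92_0h vs KN5585_0h. With 7 genes, a lack of calls does not set them apart from all genes. Their groups overlapped in every comparison but that of dry seeds. Their median log2 fold change was -0.14 in ereb92_6h vs ereb92_0h, against -0.02 for all genes tested. Zm00001d044301 (ABI2, named protein phosphatase homolog13, chromosome 3, 224583950 to 224589560) had 74.7, 67.5 and 186 CPM in ereb92_6h, 99.6, 114 and 117 CPM in ereb92_0h, 144, 127 and 142 CPM in KN5585_6h and 253, 119.9 and 106 CPM in KN5585_0h. Its log2 fold change was -0.01 ± 0.38 (SE, edgeR adjusted p = 0.995), and ereb92_6h replicate 3 was apart from the other ereb92_6h libraries.

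The same library was the highest of its group for 6 of the 7. Zm00001d038846 (PP2C 16, named protein phosphatase homolog12, chromosome 6, 165730468 to 165734191) had 36.7, 24.8 and 71.6 CPM in ereb92_6h, 61.2, 54.8 and 56.4 CPM in ereb92_0h, 73.1, 57.1 and 79.6 CPM in KN5585_6h and 99.1, 51.6 and 62.8 CPM in KN5585_0h, with a log2 fold change of -0.37 ± 0.36 (SE, edgeR adjusted p = 0.658). Zm00001d011202 (PP2C 16, chromosome 8, 142838650 to 142846028) had 16.4, 19.2 and 46.1 CPM in ereb92_6h, 28.3, 28 and 33.7 CPM in ereb92_0h, 43.3, 23.8 and 29.9 CPM in KN5585_6h and 68.3, 35.2 and 39.1 CPM in KN5585_0h, with a log2 fold change of -0.14 ± 0.38 (SE, edgeR adjusted p = 0.896). This gene alone of the 7 had no overlap in dry seeds, with a log2 fold change of -0.67 ± 0.27 (SE, edgeR adjusted p = 0.476). Zm00001d011131 and Zm00001d011132, both PP2C 16, lie 21715 bases apart on chromosome 8. Their sequences were not compared, so whether they share reads is not known. Zm00001d011131 (chromosome 8, 139985928 to 139987215) had 17.8, 21 and 39.4 CPM in ereb92_6h, 30.3, 25.7 and 30.3 CPM in ereb92_0h, 9.55, 18.5 and 35 CPM in KN5585_6h and 29, 26.5 and 24.3 CPM in KN5585_0h, with a log2 fold change of -0.14 ± 0.31 (SE, edgeR adjusted p = 0.867). Zm00001d011132 (chromosome 8, 140008931 to 140009959) had 14.3, 7.78 and 20.1 CPM in ereb92_6h, 16.7, 20.2 and 25 CPM in ereb92_0h, 17.3, 16.5 and 22.5 CPM in KN5585_6h and 31.4, 20.1 and 24 CPM in KN5585_0h, with a log2 fold change of -0.55 ± 0.36 (SE, edgeR adjusted p = 0.498).

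Both PP2C 37 genes had low counts. Zm00001d011495 (chromosome 8, 152339070 to 152343283) had 2.58, 3.26 and 1.95 CPM in ereb92_6h, 4.2, 5.5 and 2.85 CPM in ereb92_0h, 4.03, 3.88 and 0.617 CPM in KN5585_6h and 5.89, 1.91 and 4.16 CPM in KN5585_0h, with a log2 fold change of -0.68 ± 0.44 (SE, edgeR adjusted p = 0.493). Zm00001d028574 (chromosome 1, 39490113 to 39492146) had 2.78, 2.82 and 6.97 CPM in ereb92_6h, 2.86, 1.99 and 3.05 CPM in ereb92_0h, 1.36, 0.646 and 3.26 CPM in KN5585_6h and 1.52, 2.44 and 1.96 CPM in KN5585_0h, with a log2 fold change of 0.67 ± 0.50 (SE, edgeR adjusted p = 0.556). Summed over the 7 genes, the level was 165, 146 and 372 CPM in ereb92_6h replicates 1, 2 and 3, 243 to 269 CPM in ereb92_0h, 247 to 312 CPM in KN5585_6h and 258 to 488 CPM in KN5585_0h. The standard errors were 0.31 to 0.50 on the log2 scale, and a lack of calls does not show that these genes stayed level.

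**Figure D4:**
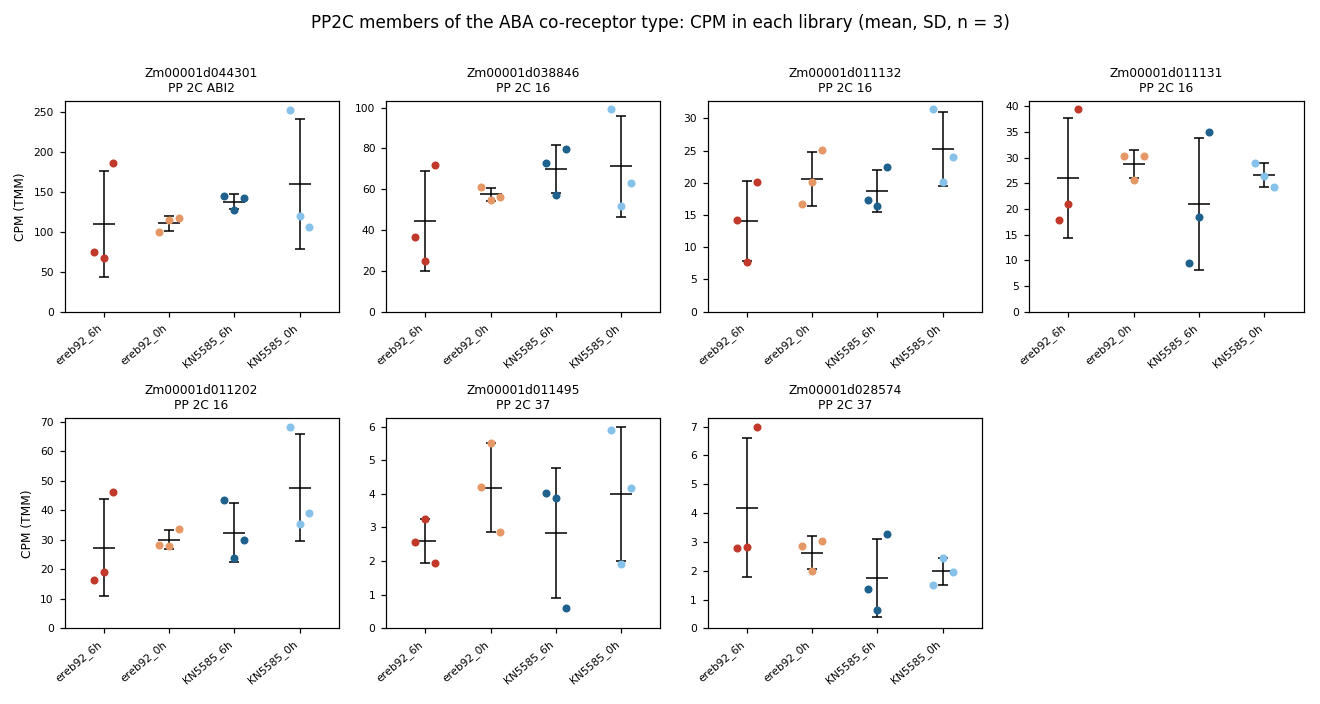
CPM (TMM) of the 7 PP2C members of the ABA co-receptor type in each library, as points with the mean and SD of the 3 libraries in a group. Groups overlap in ereb92_6h vs ereb92_0h for all 7 genes.

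The study lists 15 genes as PP2C, chosen on these samples and therefore no independent evidence. The words of the table matched 5 of them, all of the co-receptor type, and the other 10 are described as protein phosphatase homologs. The study reports higher abundance for a set of PP2C genes in imbibed mutant seeds, without naming them in its text. None of the 15 was called in any comparison, and 5 were higher and 10 lower in ereb92_6h vs ereb92_0h. There edgeR called 5.87% of all genes higher. DESeq2 and the replicate block called 0 of the 15 in that comparison, against 8.44% and 6.46% of all genes called higher. At an unadjusted p under 0.05 with a 2-fold change 1 was higher, against 11% of all genes. With 15 genes, these counts do not set the list apart from all genes. Their median log2 fold changes were -0.19 in ereb92_6h vs ereb92_0h, -0.27 in KN5585_6h vs KN5585_0h, -0.34 in ereb92_6h vs KN5585_6h and -0.63 in ereb92_0h vs KN5585_0h. All 15 were lower in KN5585_6h than in KN5585_0h and 12 of 15 were lower in ereb92_0h than in KN5585_0h. Both counts use the KN5585_0h libraries, and replicate 1 of these was far apart for some genes. Zm00001d012401 (protein phosphatase homolog4) had 290, 66.8 and 66.5 CPM in KN5585_0h. It had 105, 115 and 144 CPM in KN5585_6h and 66.2, 63.8 and 95.2 CPM in ereb92_0h. For others, such as Zm00001d009747 and Zm00001d039163, KN5585_0h replicate 1 was the lowest of its group. The 15 directions are therefore not independent of each other. Zm00001d020100 (protein phosphatase homolog6) had the largest difference upward, with 34, 8.53 and 22.8 CPM in ereb92_6h, 9.24, 9.39 and 8.23 CPM in ereb92_0h, 14.3, 19.2 and 15.8 CPM in KN5585_6h and 30.3, 13.6 and 10.1 CPM in KN5585_0h, and a log2 fold change of 1.29 ± 0.46 (SE, edgeR adjusted p = 0.174). Every other gene that the family column names PP2C was then added, a list made after the table was seen. This gave 16 tested genes outside the words in ereb92_6h vs ereb92_0h. Of these 0 were called, against the same 5.87% of all genes called higher. The 14 called members were thus genes outside the study's list.

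Phosphatase genes of the PP1 and PP2A types, 43 genes matched by words, were counted as other serine/threonine phosphatases. The words do not exclude regulatory subunits. Of 36 tested in ereb92_6h vs ereb92_0h, 0 were called, against 5.87% of all genes higher and 0.106% lower. Their median log2 fold change was -0.04, with a range up to 1.24. In ereb92_6h vs KN5585_6h 0 of 36 were called, in KN5585_6h vs KN5585_0h 0 of 38 and in ereb92_0h vs KN5585_0h 0 of 37. Of all genes, 0.815%, 0.00449% and 0.168% were called higher in these comparisons.

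Other genes of the ABA pathway, matched by words, were counted in ereb92_6h vs ereb92_0h, where 5.87% of all genes were called higher. Of 9 PYL receptor genes tested, 2 rose and 0 fell. They were Zm00001d038436 (PYL5), with 101, 28.4 and 36.5 CPM in ereb92_6h, 0.912, 0.229 and 0 CPM in ereb92_0h, 2.27, 0.646 and 0.969 CPM in KN5585_6h and 0.76, 0.0658 and 0 CPM in KN5585_0h and a log2 fold change of 7.12 ± 0.93 (SE, edgeR adjusted p = 0.0033), and Zm00001d028793 (PYL5), with a log2 fold change of 4.54 ± 1.04 (SE, edgeR adjusted p = 0.0397). The call of Zm00001d028793 was lost without ereb92_6h replicate 1 or 3 or ereb92_0h replicate 2 or 3, while its fold change stayed above the limit. DESeq2 and the fit with the replicate block each called 3 PYL genes, and Zm00001d010445 (PYL9) had an edgeR adjusted p = 0.0224 with the block and 0.0539 without it. None of 13 SnRK2 kinase genes, the family that holds the targets of the co-receptor phosphatases, was called by edgeR, by DESeq2 or with the replicate block. Of 10 ABF and ABI5 type bZIP factors, which SnRK2 kinases activate, 1 rose, Zm00001d012296, with a log2 fold change of 1.86 ± 0.31 (SE, edgeR adjusted p = 0.00982). Without ereb92_0h replicate 3 it was not called, at a log2 fold change of 1.82. Of 4 ABA 8'-hydroxylase genes, which break ABA down, 1 rose, Zm00001d017762 (abscisic acid 8'-hydroxylase1), with 89.8, 48.7 and 43.5 CPM in ereb92_6h, 1.03, 0.611 and 1.69 CPM in ereb92_0h, 3.83, 1.74 and 3.0 CPM in KN5585_6h and 0.95, 0.527 and 0.471 CPM in KN5585_0h and a log2 fold change of 5.76 ± 0.47 (SE, edgeR adjusted p = 0.000646). The words for ABI3 and viviparous1 matched 51 genes, a wider set than ABI3 itself, and 4 of 31 tested rose. The gene named viviparous1 itself, Zm00001d042396, had a log2 fold change of 0.18 ± 0.29 (SE, edgeR adjusted p = 0.809). The 1 NCED gene with enough counts, of the ABA synthesis step, was not called. In KN5585_6h vs KN5585_0h 0 genes of these lists were called, against 0.00449% of all genes called higher. There 7 PYL genes, 3 ABA 8'-hydroxylase genes and 24 genes of the ABI3 words were tested. Zm00001d038436 and Zm00001d028793 had too few counts in that comparison to be tested, so they could not be called. In ereb92_6h vs KN5585_6h, where 0.815% of all genes were called higher, 1 of 9 PYL genes, 1 of 3 ABA 8'-hydroxylase genes and 1 of 30 genes matched by the words for ABI3 and viviparous1 were called. Zm00001d038436 had a log2 fold change of 5.31 ± 0.69 (SE, edgeR adjusted p = 0.0242) and Zm00001d017762 a log2 fold change of 4.32 ± 0.44 (SE, edgeR adjusted p = 0.0197). Both calls were lost with the replicate block (edgeR adjusted p = 0.178 each) and without KN5585_6h replicate 2, ereb92_6h replicate 1 or ereb92_6h replicate 2. DESeq2 called 3 PYL genes, 1 bZIP factor, 1 ABA 8'-hydroxylase gene and 3 genes of the ABI3 words higher in this comparison. It called 1 SnRK2 gene lower, against 5.48% of all genes higher and 1.15% lower. Zm00001d029975 (SnRK2 serine threonine protein kinase3) had a log2 fold change of -1.15 ± 0.29 (SE, edgeR adjusted p = 0.121).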

How the data were processed

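RNA-seq libraries of 12 seed samples, 3 per group, were used, with groups and replicate numbers taken from the labels. The authors mapped reads to B73 RefGen_v4 with Hisat2 and counted them per gene with featureCounts, as their methods state. The processing notes of the labels name a mouse build instead, which the maize gene identifiers contradict. Strandedness and the treatment of multi-mapping reads are not given in the sources used here, so overlapping or near-identical genes are uncertain. The deposited table holds raw counts per gene, FPKM that the authors computed, and gene length with other annotation. Its columns of the authors' own DESeq2 comparisons hold group means, log2 fold changes and p-values, and these were not used here.

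Counts were tested with edgeR 4.0.16 (quasi-likelihood, TMM, filterByExpr, R 4.3.3), each comparison on its own 6 libraries and the interaction on all 12. P-values were adjusted by Benjamini-Hochberg over all genes tested, and a call needed an adjusted p under 0.05 and a 2-fold change. DESeq2 1.42.0, 1 fit on all libraries, other scalings and filters, a replicate block and leaving out each library were the alternatives. The fits were tested on simulated data. CPM were scaled by TMM over all 12 libraries, while fold changes use the factors of their own fit. P-values set a group difference against the spread between these libraries, estimated with information from all genes. They do not cover variation between edited lines. Same-numbered mutant libraries deviated together (correlations 0.364, 0.251 and 0.180). The main fits, which gave the printed calls, standard errors and adjusted p unless named otherwise, used no replicate block. Fits with the block, on replicate numbers taken from the labels, were alternatives.

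Named were members called in any comparison, up to 5 members in each direction with the largest fold change among those without overlap and with at least 1 CPM in a group, the 8 members of highest FPKM, the co-receptor type, the 15 genes of the study's list and ZmEREB92. The members and lists were chosen with earlier results of these data known.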

Additional observations from a re-analysis of the deposited data

How the results depend on the processing

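For ereb92_6h vs ereb92_0h, 9 members were called with 1 fit on all 12 libraries and 8 to 16 when 1 library was left out, against 14. With library size alone as scaling, the median log2 fold change of members was 0.169 in ereb92_6h vs ereb92_0h, 0.224 in KN5585_6h vs KN5585_0h, 0.321 in ereb92_6h vs KN5585_6h and 0.209 in ereb92_0h vs KN5585_0h, and leaving out 1 library gave 0.0461 to 0.205 in the first of these. That scaling moved the median of all genes by 0.0832, 0.147, 0.135 and 0.136 in these comparisons. For ereb92_6h vs KN5585_6h, where 1 member was called, DESeq2 called 10, 1 fit on all 12 libraries 11, no filter 5, at least 10 counts in every sample 4, library size alone 4, and leaving out 1 library 0 to 4. DESeq2 called 2 members in ereb92_0h vs KN5585_0h and 4 for the interaction, for which leaving out 1 library gave 0 to 4. DESeq2 called 5.48% of all genes higher and 1.15% lower in ereb92_6h vs KN5585_6h. Shares over all genes are not given for the other scalings and filters, the fit on all 12 libraries or most fits leaving out a library. A change in the count of members is therefore not set apart from a change over all genes. The cause of these differences was not tested.

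The replicate block gave 16 called members in ereb92_6h vs ereb92_0h and 0 in ereb92_6h vs KN5585_6h, against 6.46% and 0% of all genes called higher. Same-numbered libraries correlated at -0.086, -0.061 and -0.045 in the second of these. The values were 0.006, 0.188 and -0.221 in KN5585_6h vs KN5585_0h and -0.134, -0.092 and -0.078 in ereb92_0h vs KN5585_0h. Of these, only the 0.188 of KN5585 replicate 2 was as large as the lowest value in ereb92_6h vs ereb92_0h, 0.180. Whether same-numbered libraries were paired was not tested.

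Of 70 fold changes printed for single genes in the 4 comparisons, 5 changed sign in some alternative, none of them called. In ereb92_6h vs ereb92_0h, that of Zm00001d044301 (ABI2) was 0.025 with at least 10 counts in every sample, 0.07 with library size alone, and -0.634 (without ereb92_6h replicate 3) to 0.248 (without ereb92_6h replicate 2) when 1 library was left out. That of Zm00001d011131 was -0.569 to 0.08 and that of Zm00001d011202 was -0.756 to 0.134, each lowest without ereb92_6h replicate 3 and highest without ereb92_6h replicate 1. That of Zm00001d042396 (viviparous1) was -0.076 without ereb92_0h replicate 1 and 0.371 without ereb92_6h replicate 1. In KN5585_6h vs KN5585_0h, that of Zm00001d012962 was -0.524 without KN5585_6h replicate 3 and 2.923 without KN5585_0h replicate 3. Over all 221 fold changes of named genes, 60 changed sign in some alternative, and 0 of these were called.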
